A study of Mus musculus with 5 samples.

Results

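The comparison of 8 with 5 days in sphere culture rested on 4 of the 5 RNA sequencing libraries of mouse adrenal cells, chosen by the library number in the labels. Number 25 held L1CAM-positive and L1CAM-negative spheres after 8 days, and number 31 held both fractions after 5 days, so that each fraction had 1 library per period. L1CAM is a cell surface protein of chromaffin cells, and the fractions were separated by immunopanning of dissociated postnatal adrenals and then kept as free-floating spheres in serum-free medium. The labels give C57/bl6 mice and a 1/1 mix of P2 and P0 animals for numbers 25 and 31 alike, whereas the methods of the study name OF-1 mice at P1 to P5. The L1CAM-positive cells are labelled chromaffin cells and the L1CAM-negative cells non-adrenergic. The remaining library, number 28, held L1CAM-negative spheres of P5 mice after 8 days, and was left out of the comparison and given beside single genes. Each period had its own number, and what the numbers mark is not stated. Culture period and anything else that differed between the numbers therefore cannot be told apart. The sex of the pups is not given in the sources used here.

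Chromaffin cells of the adrenal medulla synthesize adrenaline and noradrenaline, store them in dense core granules together with chromogranins and neuropeptides, and descend from neural crest cells. The adrenal cortex around them makes steroids under the control of pituitary ACTH, and the gland also holds capsule fibroblasts, endothelium, pericytes, macrophages and mast cells. The hypoxia-inducible factors (HIF) are stable at low oxygen and raise the transcription of glucose transporters and glycolytic enzymes. These points are general background and were not measured here.

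Marker genes followed the labels at both times. *Th*, which encodes tyrosine hydroxylase, the first enzyme of catecholamine synthesis, stood at 1308 FPKM after 8 days and 1161 FPKM after 5 days in L1CAM-positive spheres, with a difference of -0.10 log2 units in L1CAM-negative spheres, where it was at 118 FPKM after 8 days. *Hsd3b1*, a steroidogenic enzyme of the cortex, stood at 764 and 843 FPKM in L1CAM-positive spheres after 8 and 5 days, and at 5418 and 4022 FPKM in L1CAM-negative spheres. FPKM, a count of fragments scaled by transcript length and library size, was computed here from the deposited log2 values by taking off an inferred offset of 2. Both genes were thus detected in both fractions. The table holds values at the floor for 20.7 to 22.0% of transcripts per library, and the depth of the libraries is unknown.

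Most genes differed little. Leaving out short RNA genes (microRNAs, small nucleolar RNAs, other small structured RNAs and transcripts under 200 bases), the central 95% of 13388 genes had an 8 minus 5 day difference between -0.49 and 0.38 log2 units in L1CAM-positive spheres, and between -0.47 and 0.41 in L1CAM-negative spheres. With 1 library per period and fraction these differences have no replicate check, and a difference of at least 1 log2 unit is used as a description of size. In L1CAM-positive spheres 12 genes (0.0896%) were at least 1 higher after 8 days and 68 (0.508%) at least 1 lower. In L1CAM-negative spheres 22 genes (0.164%) were at least 1 higher and 42 (0.314%) at least 1 lower. Only 2 genes (0.0149%) were at least 1 higher in both fractions, and 9 (0.0672%) at least 1 lower in both. The 2 differences had a Pearson correlation of 0.25 and a Spearman correlation of 0.22 across the 13388 genes. These genes are not independent replicates and come from the same 2 library numbers. The genes nearest to the threshold were *Cox18* at 1.01 and *H2-L* at 0.998 for higher in L1CAM-positive spheres, *Spink4* at -1.004 and *Hao2* at -0.994 for lower, and in L1CAM-negative spheres *Mgat4a* at 1.00 and *Hdac5* at 0.996 for higher, and *Gm6213* at -1.01 and *Laptm5* at -0.998 for lower.

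**Figure D1:**
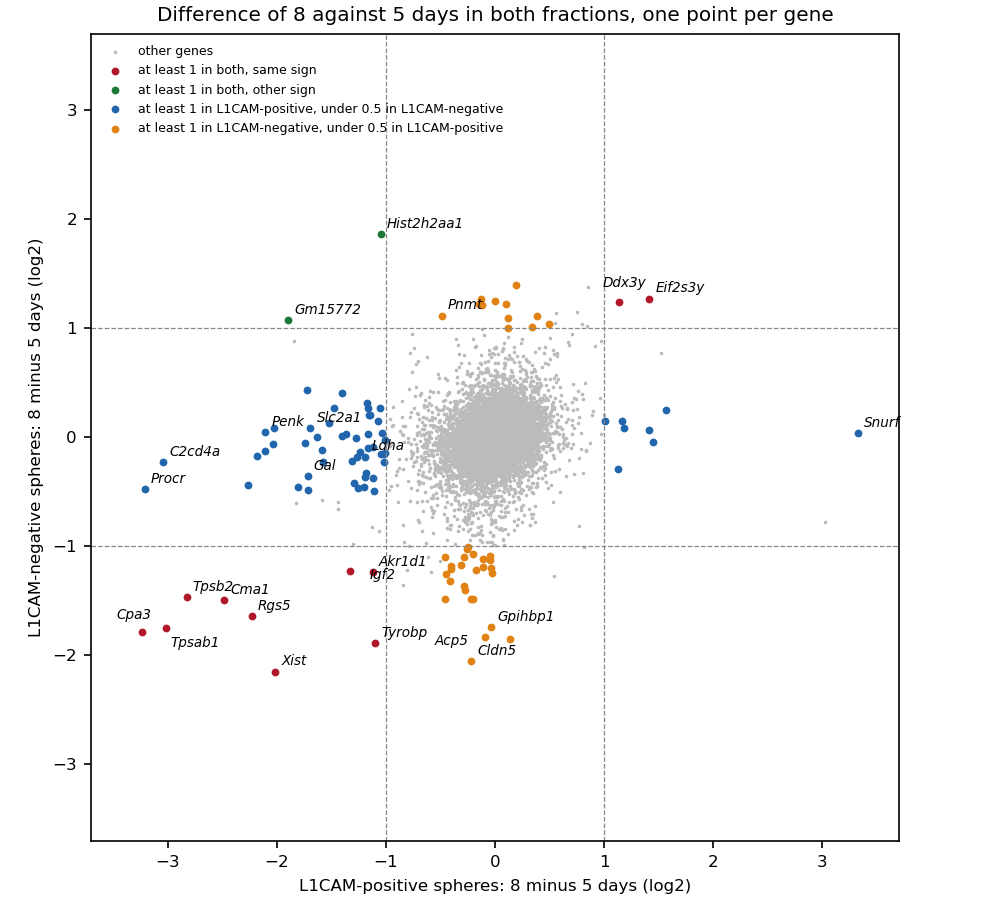
Each point is 1 of 13388 genes, with its 8 minus 5 day difference in log2 units in L1CAM-positive spheres (horizontal) and in L1CAM-negative spheres (vertical), 1 library per period and fraction. Dashed lines mark a difference of 1. Mast cell genes and *Xist* lie at the lower left, *Eif2s3y* and *Ddx3y* at the upper right, and the 49 genes lower in L1CAM-positive spheres only lie on the left near the horizontal axis.

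Genes that differed in both fractions were few, and among them the sex-linked genes stood out. *Xist*, the RNA that coats the inactive X chromosome of female cells, had 25.7 and 16.4 FPKM in L1CAM-positive and L1CAM-negative spheres after 8 days, against 110 and 79.4 FPKM after 5 days. It was 2.02 log2 units lower in L1CAM-positive and 2.15 lower in L1CAM-negative spheres. The Y-linked genes went the other way. *Eif2s3y*, a translation initiation factor subunit, had 61.1 and 74.8 FPKM after 8 days against 21.7 and 29.8 FPKM after 5 days, and *Ddx3y*, an RNA helicase, had 36.2 and 51.7 FPKM after 8 days against 15.4 and 20.7 FPKM after 5 days, in L1CAM-positive and L1CAM-negative spheres in that order. *Uty* was 0.85 and 1.02 log2 units higher, and *Kdm5d*, a histone demethylase, 0.97 and 0.88 higher. All 4 Y-linked genes measured were thus higher after 8 days in both fractions, while *Tsix*, the antisense partner of *Xist*, was 0.78 and 0.59 lower. The X-linked copies *Eif2s3x*, *Ddx3x*, *Kdm5c* and *Kdm6a* lay between -0.34 and -0.01. In number 28 *Xist* was at 77.9 FPKM and *Eif2s3y* at 14.3 FPKM, on the side of the 5-day libraries though it had been cultured for 8 days.

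Mast cell genes, the proteases and receptors of a tissue-resident granulocyte of the gland's connective tissue, were the other group that differed in both fractions. The list of 14 was written after the values were seen, and 8 of them passed the filter on low values. *Cpa3*, mast cell carboxypeptidase, had 9.69 and 7.66 FPKM in L1CAM-positive and L1CAM-negative spheres after 8 days, against 108 and 31.2 FPKM after 5 days. *Tpsb2*, a tryptase, had 13.96 and 12.4 FPKM after 8 days, against 111 and 37.7 FPKM after 5 days, and *Tpsab1* and the chymase gene *Cma1* had the same order. All 4 protease genes were lower by 2.48 to 3.24 log2 units in L1CAM-positive spheres and by 1.46 to 1.78 in L1CAM-negative spheres. *Hdc*, which makes histamine, was 1.81 lower in L1CAM-positive and 0.46 lower in L1CAM-negative spheres, and *Mrgprb2*, a mast cell receptor, 1.19 and 0.36 lower. *Kit*, the stem cell factor receptor, differed by -0.12 and 0.11 and is also made by other adrenal cells. Over the list, 7 of 8 genes were at least 1 lower in L1CAM-positive and 4 of 8 in L1CAM-negative spheres, and the summed level of all 14 was 47.3 and 55.5 FPKM after 8 days against 358 and 137 FPKM after 5 days. In spheres, fewer cells of a type and less RNA per cell cannot be told apart.

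**Figure D2:**
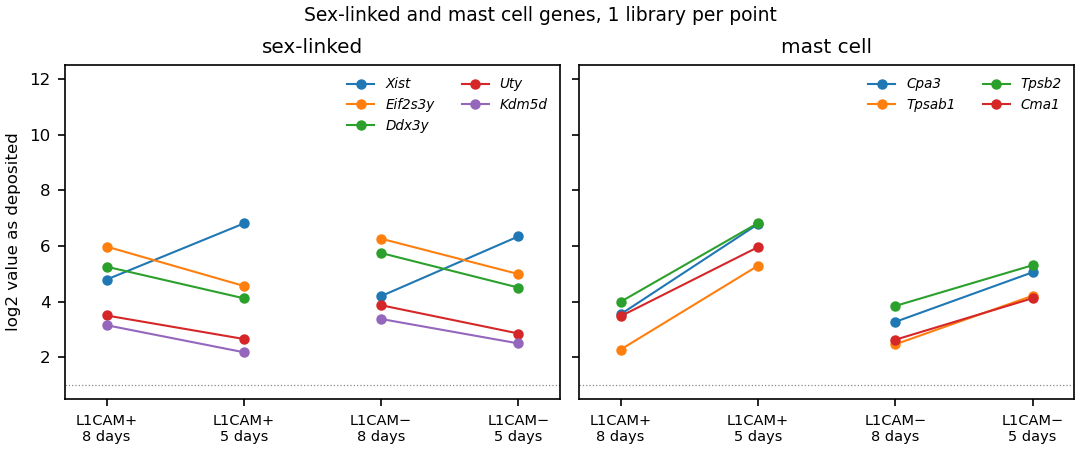
Deposited log2 values of sex-linked genes (left) and mast cell genes (right), with 1 point per library and a line joining 8 and 5 days within a fraction. The dotted line marks the floor of the scale. *Xist* and the 4 mast cell proteases are lower after 8 days in both fractions, and the 4 Y-linked genes are higher.

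The other genes at least 1 lower in both fractions were *Rgs5*, *Akr1d1*, *Fcer1g* and *Tyrobp*. *Rgs5*, a regulator of G protein signalling and marker of pericytes, had 4.18 and 7.52 FPKM in L1CAM-positive and L1CAM-negative spheres after 8 days, against 27.0 and 27.7 FPKM after 5 days. Other pericyte genes did not share its size of difference, as *Kcnj8* differed by -0.27 and -0.45, *Abcc9* by -0.23 and -0.51 and *Pdgfrb* by -0.19 and -0.62. *Akr1d1*, a steroid 5-beta-reductase, was 1.12 and 1.24 log2 units lower. *Fcer1g* and *Tyrobp*, signalling adapters of myeloid cells and, for *Fcer1g*, of mast cells, were 1.33 and 1.10 lower in L1CAM-positive spheres and 1.22 and 1.88 lower in L1CAM-negative spheres. In number 28 *Rgs5* stood at 6.36 log2 units, above both L1CAM-negative libraries compared here (3.25 after 8 days and 4.89 after 5 days), and *Tyrobp* at 3.78, below both.

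A common shift of both fractions was tested with limma, with terms for fraction and culture period over the 4 libraries. This leaves 1 residual degree of freedom, which is the difference of the shift between the fractions. The p-values therefore hold no spread between cultures or animals of the same period. Of 13733 genes, 7 were called higher after 8 days (0.051%) and 9 lower (0.0655%) at a Benjamini-Hochberg adjusted p under 0.05, and 835 had an unadjusted p under 0.05. All 16 were short RNA genes with a length of 55 to 124 bases, 11 of them microRNA precursors and 4 small nucleolar RNAs. The 7 were at the floor of the scale in both 5-day libraries, and the 9 were at the floor in both 8-day libraries. They passed the filter on low values through the other period alone, and their tied floor values add nothing to the single residual degree of freedom, so no rise or fall is read from these calls. A pair of let-7 precursors, a family that represses growth genes through a shared seed, is shown because one was called higher and the other lower. *Mirlet7b* had 11.82 and 11.02 log2 units in L1CAM-positive and L1CAM-negative spheres after 8 days and was listed at the floor in both 5-day libraries (limma adjusted p = 0.0402). *Mirlet7i* was listed at the floor in both 8-day libraries and had 10.42 and 11.06 after 5 days (limma adjusted p = 0.0313). The mature 5′ arms carry the same seed, bases 2 to 8, in capitals (RefSeq, GRCm38.p6, chromosome 15 plus strand and chromosome 10 minus strand).
let-7b-5p: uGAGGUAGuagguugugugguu
let-7i-5p: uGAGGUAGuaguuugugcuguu
The libraries were made with an mRNA kit, and such values are of reads at the hairpin, not of the mature microRNA.

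The other let-7 precursors that passed the filter had no common direction. *Mirlet7c-2* had 10.80 log2 units in L1CAM-positive spheres after 8 days and was at the floor after 5 days, with 10.32 and 9.07 in L1CAM-negative spheres. *Mirlet7f-1* was at the floor in 3 of the 4 libraries and at 10.11 in L1CAM-negative spheres after 5 days. *Mirlet7d* and *Mirlet7e* were above the floor in all 4. Of the 1237 short RNA genes in the table, of which 345 were tested, 14 were at the floor in both 8-day libraries alone, 12 in both 5-day libraries alone, 12 in both L1CAM-positive libraries alone and 20 in both L1CAM-negative libraries alone, and 51 in a single library. A split by fraction was thus no rarer than one by period. In L1CAM-positive spheres 51.6% of tested short RNA genes and 0.598% of the other genes differed by at least 1, and in L1CAM-negative spheres 47.0% and 0.478%. In number 28, 8 of the 9 called lower were at the floor, and 2 of the 7 called higher were above it.

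The differences of short RNA genes had an SD of 7.02 log2 units in L1CAM-positive and 6.503 in L1CAM-negative spheres, against 0.24 and 0.22 for the other genes. The test was therefore repeated without them, an alternative chosen after seeing the data. Its SEs and p-values again rest on how alike the fractions differed, and hold no spread between cultures of the same period. Of 13388 genes, 4 then passed (0.0299%), with 1259 at an unadjusted p under 0.05. *Xist* fell by 2.08 ± 0.07 log2 units (SE, limma adjusted p = 0.0112) and *Akr1d1* fell by 1.18 ± 0.07 (adjusted p = 0.0479, limma). *Eif2s3y* rose by 1.34 ± 0.07 and *Ddx3y* by 1.19 ± 0.07 (limma adjusted p = 0.0479 each). With the short RNA genes in the fit the limma adjusted p-values were 0.0656 for *Xist*, 0.222 for *Eif2s3y* and 0.238 for *Ddx3y* and *Akr1d1*. None of the 4 mast cell protease genes passed in either fit, and over 15 settings the lowest limma adjusted p-values were 0.196 for *Cpa3* and 0.232 for *Cma1*.

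In L1CAM-positive spheres alone, 49 genes were at least 1 lower after 8 days with a difference under 0.5 in L1CAM-negative spheres, and 7 of them belong to the list of glycolysis and HIF response genes. *Slc2a1*, the glucose transporter GLUT1, had 24.5 FPKM after 8 days against 83.8 FPKM after 5 days in L1CAM-positive spheres, and 32.4 against 30.5 FPKM in L1CAM-negative spheres. *Ldha*, the enzyme that turns pyruvate into lactate, had 63.2 against 147 FPKM in L1CAM-positive and 88.3 against 100.1 FPKM in L1CAM-negative spheres. *Ankrd37*, a HIF target, was 1.59 log2 units lower in L1CAM-positive and 0.11 lower in L1CAM-negative spheres. *Egln3*, an oxygen-sensing prolyl hydroxylase, was 1.30 and 0.42 lower, and *Hk2*, which phosphorylates glucose, was 1.16 lower in L1CAM-positive and 0.03 higher in L1CAM-negative spheres. *P4ha1*, a collagen prolyl hydroxylase subunit, was 1.01 and 0.22 lower. *Vegfa*, the vessel growth factor, was 1.04 lower by its most abundant transcript and 0.54 lower when its transcripts were summed. Further genes of this kind, named after their values were seen, were *Ero1l*, an endoplasmic oxidase (1.52 lower), and *Cox4i2*, a cytochrome oxidase subunit (2.26 lower).

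Over the list of 25 glycolysis and HIF response genes that passed the filter, 7 were at least 1 lower in L1CAM-positive spheres and 0 in L1CAM-negative spheres. The median difference was -0.44 in L1CAM-positive and 0.01 in L1CAM-negative spheres, where the median of all 13388 genes was 0.01 in each. In L1CAM-positive spheres 23 of the 25 were below 0 and in L1CAM-negative spheres 10, against 47.0% and 47.2% of all genes. Over all 26 listed genes the summed level was 1239 FPKM after 8 days and 1730 FPKM after 5 days in L1CAM-positive spheres, and 1136 and 1071 FPKM in L1CAM-negative spheres. *Adm*, the adrenomedullin precursor, differed by -0.30 in L1CAM-positive and 0.20 in L1CAM-negative spheres, and *Aldoa*, a glycolytic enzyme, by -0.23 and 0.23. The enzyme genes *Gapdh*, *Pgk1*, *Eno1* and *Pgam1* have many near-identical copies, and their low levels of 4.25 to 10.3 FPKM are uncertain. The difference between fractions was not tested, as no residual degree of freedom is left for it.

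**Figure D3:**
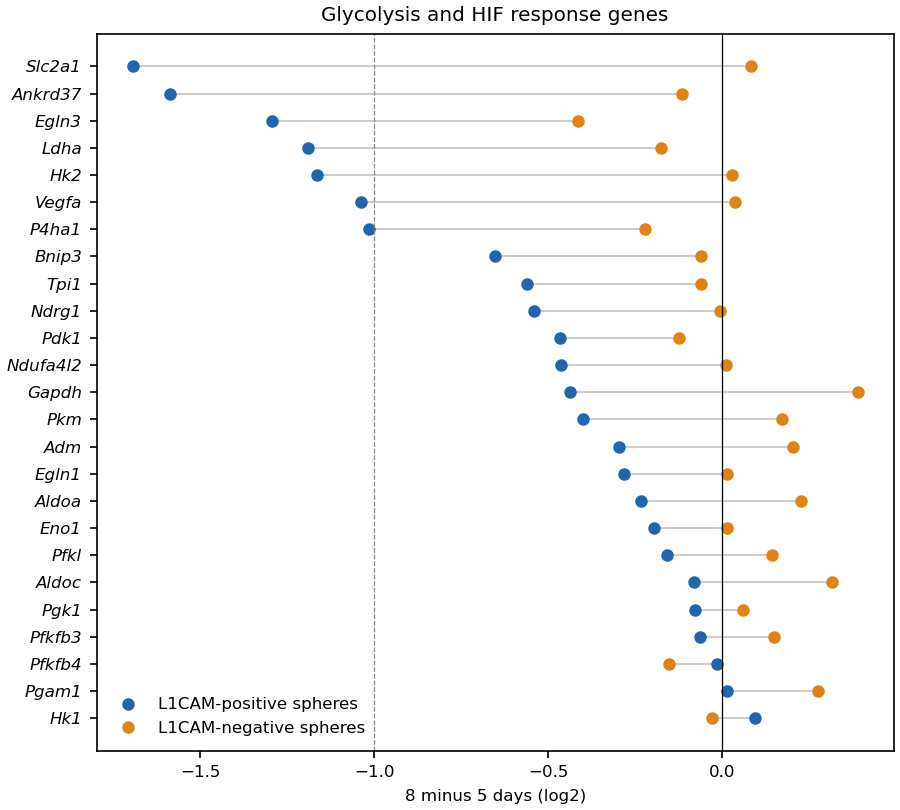
The 25 glycolysis and HIF response genes tested, with their 8 minus 5 day difference in log2 units in L1CAM-positive spheres (blue) and L1CAM-negative spheres (orange), 1 library per period and fraction. The blue points of 7 genes lie beyond -1 (dashed line), and the orange points lie between -0.42 and 0.39.

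HIF binds DNA at the core letters ACGTG. On either strand of the window of 250 bases before to 50 after the start of a gene, these letters occurred in 17 of the 23 list genes with a RefSeq promoter (73.9%) and in 28.9% of the 10387 tested genes with one. A gene with several annotated starts was counted if any of its windows held the letters. By that rule they occurred in 7 of the 7 list genes that were at least 1 lower in L1CAM-positive spheres and in 10 of the other 16. For *Vegfa* they lay only in the window of the start after chr17:46025164-46025413, not in that after chr17:46032378-46032627. *Vegfa* was also at least 1 lower by its most abundant transcript only, and 6 list genes were so with transcripts summed. The 250 bases before the start of 4 of the 7 are shown on the strand of the gene, with ACGTG or its reverse complement CACGT in capitals, to let the copies be compared (RefSeq, GRCm38.p6). They lie at chr4:119108495-119108744 on the plus strand for *Slc2a1*, chr8:45999851-46000100 on the minus strand for *Ankrd37*, chr7:46845554-46845803 on the plus strand for *Ldha* and chr10:59323046-59323295 on the plus strand for *P4ha1*.
Slc2a1: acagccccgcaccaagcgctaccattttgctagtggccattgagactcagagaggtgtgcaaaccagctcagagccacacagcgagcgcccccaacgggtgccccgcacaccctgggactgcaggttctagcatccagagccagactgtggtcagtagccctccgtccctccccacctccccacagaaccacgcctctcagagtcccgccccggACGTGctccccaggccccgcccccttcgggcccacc
Ankrd37: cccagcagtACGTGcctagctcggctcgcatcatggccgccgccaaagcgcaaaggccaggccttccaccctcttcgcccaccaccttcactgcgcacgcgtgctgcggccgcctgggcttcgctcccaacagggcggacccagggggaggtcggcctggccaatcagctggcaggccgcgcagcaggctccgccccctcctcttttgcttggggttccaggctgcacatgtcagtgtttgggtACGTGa
Ldha: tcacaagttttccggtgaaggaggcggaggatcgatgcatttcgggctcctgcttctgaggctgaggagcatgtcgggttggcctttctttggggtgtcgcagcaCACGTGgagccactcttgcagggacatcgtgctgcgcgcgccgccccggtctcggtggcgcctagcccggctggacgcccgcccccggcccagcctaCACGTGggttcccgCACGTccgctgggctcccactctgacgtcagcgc
P4ha1: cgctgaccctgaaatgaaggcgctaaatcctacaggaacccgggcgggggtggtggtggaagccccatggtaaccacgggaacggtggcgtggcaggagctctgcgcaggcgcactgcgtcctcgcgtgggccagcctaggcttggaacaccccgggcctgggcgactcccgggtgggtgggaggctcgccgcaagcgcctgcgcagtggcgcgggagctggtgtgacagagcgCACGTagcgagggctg
The *Ldha* window held CACGTG, in which both strands overlap, at 145 and 48 bases before the start, and a further copy at 34 bases. In *Slc2a1* the copy began 36 bases before the start, in *P4ha1* 16 bases, and in *Ankrd37* 241 and 6 bases. A match is a description of the letters only. Letters of other factors that were searched in other lists are given with the mitosis genes below.

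Of the granule genes, the peptide precursors *Npy*, *Penk*, *Gal* and *Vgf* were at least 1 lower in L1CAM-positive spheres and less than 0.5 from 0 in L1CAM-negative spheres, a difference between fractions that was not tested. *Npy*, neuropeptide Y, had 606 FPKM after 8 days against 1308 FPKM after 5 days in L1CAM-positive spheres, and 89.4 against 126.4 FPKM in L1CAM-negative spheres. *Penk*, the enkephalin precursor, had 20.7 against 95.7 FPKM in L1CAM-positive and 50.2 against 48.5 FPKM in L1CAM-negative spheres. *Gal*, galanin, had 49.4 against 167 FPKM in L1CAM-positive and 3.12 against 4.55 FPKM in L1CAM-negative spheres. *Vgf*, a precursor of several neuroendocrine peptides, was 1.18 and 0.33 log2 units lower, and *Pcsk1*, a convertase that cuts such precursors, 0.71 and 0.10 lower. The chromogranin genes *Chga* and *Chgb* were 0.48 and 0.40 higher in L1CAM-positive spheres, and *Scg2* 0.17 higher. Of the 18 granule genes 4 were at least 1 lower in L1CAM-positive spheres, with a median of -0.14, and 1 in L1CAM-negative spheres, with a median of -0.16. The 11 tested neuropeptide precursors, a list written after the values were seen, had medians of -0.40 in L1CAM-positive and -0.33 in L1CAM-negative spheres. At least 1 higher were *Nmb* in L1CAM-positive spheres, with 3.34 against 0.00645 FPKM, and *Calcb* in L1CAM-negative spheres, with 15.4 against 5.20 FPKM. *Nmb* was not higher when its transcripts were summed. At least 1 lower were 4 in L1CAM-positive and 1 in L1CAM-negative spheres. These are the same genes as those counted for the granule list, so the 2 lists are not separate observations. The granule gene at least 1 lower in L1CAM-negative spheres was *Cartpt*, a precursor of satiety peptides, with 105 against 139 FPKM in L1CAM-positive and 40.5 against 96.0 FPKM in L1CAM-negative spheres. With its transcripts summed *Cartpt* differed by -0.96 in L1CAM-negative spheres and was no longer past the threshold.

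The genes of catecholamine synthesis and of chromaffin cell identity did not share these differences. Of the 13 genes of synthesis, storage and uptake none was at least 1 lower or higher in L1CAM-positive spheres, and the median difference was 0.17 in L1CAM-positive and 0.08 in L1CAM-negative spheres. *Dbh*, which converts dopamine to noradrenaline, had 756 against 670 FPKM in L1CAM-positive spheres after 8 and 5 days, and *Slc6a2*, the noradrenaline transporter, 62.5 against 44.3 FPKM. *Pnmt*, the enzyme that makes adrenaline, was the exception. It had 39.0 FPKM after 8 days against 55.5 FPKM after 5 days in L1CAM-positive spheres, and 8.99 against 3.07 FPKM in L1CAM-negative spheres. In number 28 *Pnmt* was at 1.11 log2 units, so that the 2 L1CAM-negative libraries of 8 days lay on both sides of the 5-day library. Of 14 sympathoadrenal transcription factors, with a median of 0.18 in L1CAM-positive and -0.03 in L1CAM-negative spheres, *Phox2a* had the largest difference, 0.54 higher in L1CAM-positive spheres.

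Stress and early response genes split within their list. *Nr4a1*, an orphan nuclear receptor of the immediate early class, had 8.54 FPKM after 8 days against 32.8 FPKM after 5 days in L1CAM-positive spheres, and 31.7 against 23.0 FPKM in L1CAM-negative spheres. *Nr4a3* was 1.40 log2 units lower in L1CAM-positive and 0.41 higher in L1CAM-negative spheres, and *Atf3*, a stress transcription factor, 1.16 and 0.10 lower. *Fos*, *Jun*, *Junb* and *Egr1*, of the same class, differed by 0.01, 0.07, -0.01 and 0.33 in L1CAM-positive spheres. Of the 17 genes of the list 3 were at least 1 lower in L1CAM-positive spheres and none in L1CAM-negative spheres, and the medians were -0.01 and -0.04.

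Most glial genes were lower in L1CAM-positive spheres, where all 15 listed summed to 248 FPKM after 8 days against 294 FPKM after 5 days, with 25.9 against 28.8 FPKM in L1CAM-negative spheres. *Sox10*, the transcription factor of Schwann cell precursors, had 7.62 FPKM after 8 days against 18.9 FPKM after 5 days in L1CAM-positive spheres, and 0.57 against 0.74 FPKM in L1CAM-negative spheres. *Fabp7*, a fatty acid binding protein of glial precursors, had 29.6 against 67.1 FPKM in L1CAM-positive and 0.68 against 2.73 FPKM in L1CAM-negative spheres. *Foxd3*, *Ednrb*, *Erbb3*, *S100b* and *Cdh19* were 0.52 to 0.96 log2 units lower in L1CAM-positive spheres. Over the 12 genes tested 2 were at least 1 lower and 10 below 0 in L1CAM-positive spheres, against 47.0% of all genes below 0. The median was -0.65 in L1CAM-positive and -0.06 in L1CAM-negative spheres. *Gfra3*, a receptor for artemin, was 0.34 higher and *Mbp* 0.23 higher in L1CAM-positive spheres. *Gfra3* had 149 against 117 FPKM in L1CAM-positive and 5.82 against 5.85 FPKM in L1CAM-negative spheres. It thus held a large part of the summed level in L1CAM-positive spheres, and the sums understate the difference of the other listed genes.

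Of the 49 genes at least 1 lower in L1CAM-positive spheres only, *Procr* and *C2cd4a* had the largest differences. *Procr*, the endothelial protein C receptor, had 2.46 FPKM after 8 days against 39.3 FPKM after 5 days, and 6.66 against 10.04 FPKM in L1CAM-negative spheres. *C2cd4a* had 0.864 against 21.6 FPKM in L1CAM-positive spheres. *Lox*, a collagen cross-linking oxidase, had 1.05 against 11.8 FPKM in L1CAM-positive and 18.7 against 21.3 FPKM in L1CAM-negative spheres. *Adora2a*, an adenosine receptor, was 2.11 log2 units lower and 0.13 lower. Among the 8 genes higher in L1CAM-positive spheres alone, *Snurf*, an imprinted reading frame upstream of *Snrpn*, had 41.5 against 2.34 FPKM, with 10.6 against 10.3 FPKM in L1CAM-negative spheres. *Snrpn*, whose transcripts overlap it, differed by -0.85 log2 units in L1CAM-positive spheres, so the value of *Snurf* is uncertain. Of the 12 genes at least 1 higher in L1CAM-positive spheres 5 stayed so when the transcripts of a symbol were summed, and of the 68 lower ones 58.

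In L1CAM-negative spheres alone, 26 genes were at least 1 lower after 8 days, with the endothelial gene *Cldn5* the lowest at -2.05. Of the macrophage list *Csf1r*, *Cd68*, *C1qa* and *C1qb* were among the 26, while *Lyz2* also differed by -0.58 in L1CAM-positive spheres, and *Fcer1g* and *Tyrobp* were at least 1 lower in both fractions. *Lyz2*, lysozyme, had 135 FPKM after 8 days against 320 FPKM after 5 days in L1CAM-negative spheres, and 13.3 against 20.9 FPKM in L1CAM-positive spheres. *Csf1r*, the receptor for the growth factor that keeps macrophages alive, had 4.59 against 13.0 FPKM in L1CAM-negative spheres, and the complement gene *C1qb* 11.9 against 28.2 FPKM. Of 15 macrophage genes tested 7 were at least 1 lower in L1CAM-negative spheres, where the median was -0.90 and the summed level of all 16 listed was 267 against 624 FPKM. In L1CAM-positive spheres 2 were at least 1 lower, the median was -0.11 and the sum 34.8 against 56.0 FPKM. In number 28, also 8 days in culture, the sum was 188 FPKM.

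Genes that osteoclasts and lysosome-rich macrophages share had differences of the same kind. *Acp5*, tartrate-resistant acid phosphatase, had 7.32 against 31.1 FPKM in L1CAM-negative spheres after 8 and 5 days, *Gpnmb*, a lysosomal glycoprotein, 12.6 against 38.7 FPKM and *Mmp9*, a gelatinase, 2.19 against 13.1 FPKM. *Ctss* and *Spi1*, a lysosomal protease and the master factor of myeloid cells, were 1.48 and 1.31 log2 units lower. In this list, written after the values were seen, 7 of 8 genes were at least 1 lower in L1CAM-negative spheres and none in L1CAM-positive spheres. The cell fusion genes *Dcstamp* and *Ocstamp* did not pass the filter, with at most 0.494 and 0.557 FPKM in any of the 4 libraries.

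Endothelial genes in L1CAM-negative spheres split. *Cldn5*, a tight junction protein of endothelium, had 0.71 FPKM after 8 days against 9.22 FPKM after 5 days, *Gpihbp1*, which anchors lipoprotein lipase to capillaries, had 1.05 against 8.19 FPKM, and *Cd93* and *Esam* were 1.22 and 1.12 log2 units lower. *Gpihbp1* and *Cd93* are not in the list of endothelial genes. *Pecam1* was 0.82 lower and *Fabp4* 0.96 lower. *Plvap*, a protein of fenestrated capillaries, had 16.9 against 8.87 FPKM, *Cdh5*, VE-cadherin, 21.1 against 17.8 FPKM and *Emcn* 145 against 154 FPKM. Over the 10 genes of the list tested 2 were at least 1 lower in L1CAM-negative spheres, and the median was -0.13 in L1CAM-positive and -0.08 in L1CAM-negative spheres. With transcripts summed, 3 were at least 1 lower in L1CAM-negative spheres and their median was -0.41. In number 28 *Cldn5* stood at 2.64 log2 units, between the 1.44 of the 8-day and the 3.49 of the 5-day library.

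**Figure D4:**
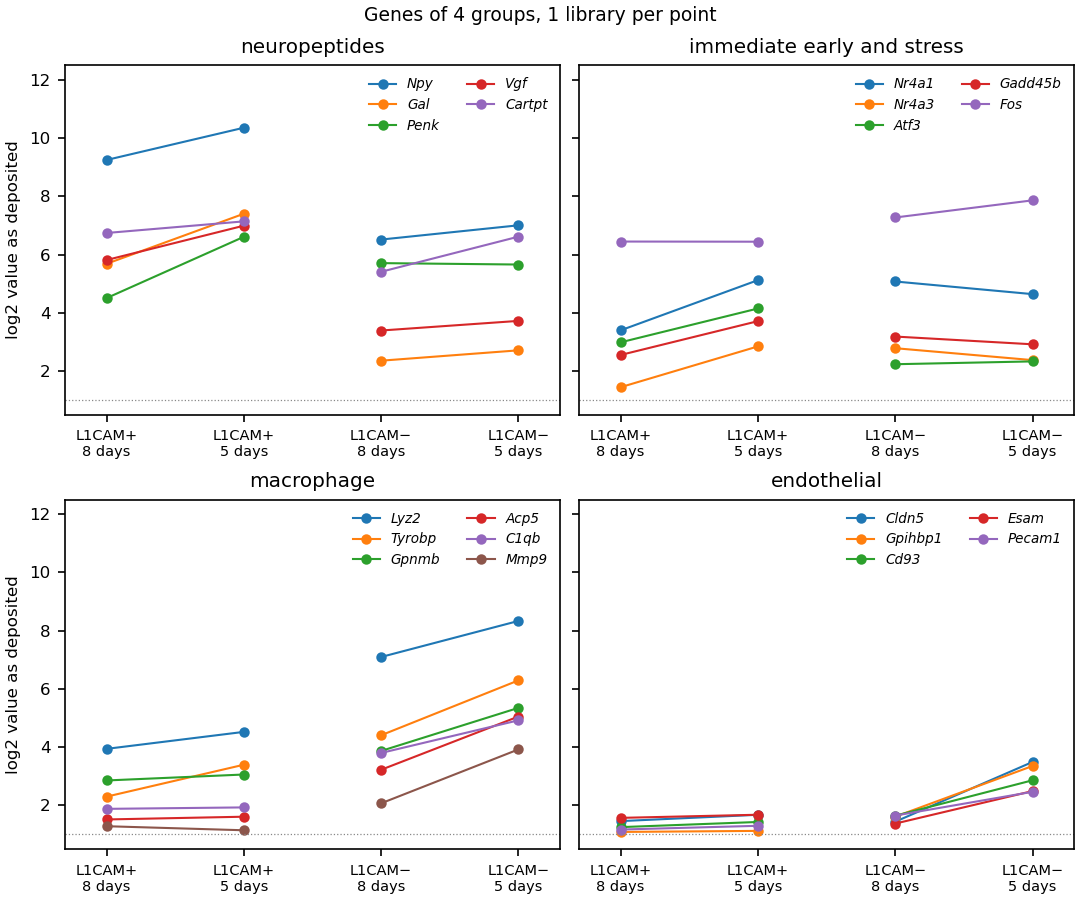
Deposited log2 values of 5 or 6 genes of 4 groups, with 1 point per library and a line joining 8 and 5 days within a fraction. *Npy*, *Gal*, *Penk*, *Vgf*, *Nr4a1*, *Nr4a3* and *Atf3* slope mainly in L1CAM-positive spheres. *Cartpt* and the macrophage and endothelial genes slope mainly in L1CAM-negative spheres, with *Tyrobp* lower after 8 days in both fractions. *Fos* lies level in L1CAM-positive spheres.

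Among the genes at least 1 higher in L1CAM-negative spheres were *Acta2*, *Tagln*, *Mfap5* and *Cyp11b1*. *Acta2* and *Tagln*, smooth muscle actin and transgelin, had 23.5 and 71.1 FPKM after 8 days against 10.4 and 31.2 FPKM after 5 days in L1CAM-negative spheres. The rest of the smooth muscle and pericyte list did not share this, as 8 of the 11 tested were below 0 and 1 at least 1 lower in L1CAM-negative spheres, with a median of -0.25. Of all genes 47.2% were below 0 there. *Mfap5*, a microfibril protein, had 7.67 against 2.18 FPKM, and *Mgp*, matrix Gla protein, 3764 against 2201 FPKM. *Cyp11b1*, which makes corticosterone in the zona fasciculata, had 1102 against 497 FPKM in L1CAM-negative spheres and 76.7 against 44.7 FPKM in L1CAM-positive spheres. Of the 16 steroid synthesis genes *Cyp11b1* alone was at least 1 higher in L1CAM-negative spheres. *Cyp11a1*, which starts the pathway from cholesterol, was 0.76 higher and *Star*, the cholesterol carrier of mitochondria, 0.58 higher, and the median was -0.07 in L1CAM-positive and 0.23 in L1CAM-negative spheres. *Cyp11b2*, the aldosterone synthase, was at 1.70 against 2.69 FPKM. In number 28, also 8 days in culture, *Acta2* and *Tagln* had 14.5 and 31.6 FPKM, and *Mfap5* and *Cyp11b1* 6.27 and 1308 FPKM. *Saa3*, an acute phase gene, had 150 against 400 FPKM in L1CAM-negative spheres, with 1513 FPKM in number 28.

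Of the 22 genes at least 1 higher in L1CAM-negative spheres 15 stayed so when transcripts were summed, and of the 42 lower ones 35. *Igf2*, a fetal growth factor, had 48.9 and 105 FPKM in L1CAM-positive and L1CAM-negative spheres after 8 days, against 89.6 and 271 FPKM after 5 days. It was 0.85 log2 units lower in L1CAM-positive and 1.36 lower in L1CAM-negative spheres, and *Mest*, of the same imprinted network, 0.59 and 0.64 lower. *Dlk1* and *Meg3*, neighbours on chromosome 12, were 0.31 and 0.38 higher in L1CAM-positive spheres and 0.66 and 0.46 lower in L1CAM-negative spheres.

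Mitosis genes differed by less than 1 and in the same direction in L1CAM-positive spheres. All 20 mitosis genes were lower after 8 days in L1CAM-positive spheres, by 0.16 to 0.66 log2 units, and 18 of 20 in L1CAM-negative spheres, with medians of -0.45 and -0.22. Of all genes, 47.0% were below 0 in L1CAM-positive and 47.2% in L1CAM-negative spheres. *Mki67*, the proliferation antigen, had 24.5 and 13.99 FPKM in L1CAM-positive and L1CAM-negative spheres after 8 days, against 33.7 and 15.5 FPKM after 5 days, and *Top2a*, which untangles replicated DNA, 58.0 and 32.6 FPKM against 80.3 and 38.4 FPKM. Of 20 genes of S phase and DNA replication 19 were below 0 in L1CAM-positive and 11 in L1CAM-negative spheres, with medians of -0.30 and -0.07. The CCAAT letters are bound by NF-Y and known from promoters of mitosis genes. On either strand of the same window they were found in 15 of 17 mitosis genes with a promoter (88.2%) and in 42.9% of all. Letters of other factors were searched in other lists too. The interferon response element was found in 4 of 7 interferon-stimulated genes with a promoter (57.1%) and in 3.52% of all. The medians of that list were 0.09 in L1CAM-positive and 0.02 in L1CAM-negative spheres. Of the pairs searched, only the AP-1 site was rarer in its list, with 0 of 13 immediate early genes against 6.07% of all. A link of such letters to the 8 minus 5 day difference was not tested. Of 18 collagen and cross-linking genes 16 were below 0 in L1CAM-positive and 11 in L1CAM-negative spheres, with medians of -0.31 and -0.20, and 2 were at least 1 lower in L1CAM-positive spheres. The L1CAM-negative counts of the S phase and collagen lists are near the share of all genes below 0, and no direction is read from them.

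The opposite side was held by genes of the amino acid response. Of the 18 genes that ATF4, the factor of this response, is known to raise or that act beside it, 2 were below 0 in each fraction and 14 above 0 in both, with medians of 0.20 in L1CAM-positive and 0.22 in L1CAM-negative spheres. *Trib3*, a pseudokinase, was 0.51 and 0.54 higher, *Chac1*, which breaks down glutathione, 0.71 and 0.25 higher, and *Asns*, asparagine synthetase, 0.22 and 0.36 higher. The list of the unfolded protein response, another stress list, went the other way. Of its 14 genes 13 were below 0 in L1CAM-positive and 12 in L1CAM-negative spheres, with medians of -0.14 and -0.12. Glucocorticoid response genes had a median of -0.06 in L1CAM-positive and 0.33 in L1CAM-negative spheres, where *Zbtb16* was 0.68 and *Mt1*, a metallothionein, 0.48 higher. Genes of oxidative phosphorylation, cytosolic ribosomal proteins and housekeeping had medians between 0.00 and 0.07 in both fractions.

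**Figure D5:**
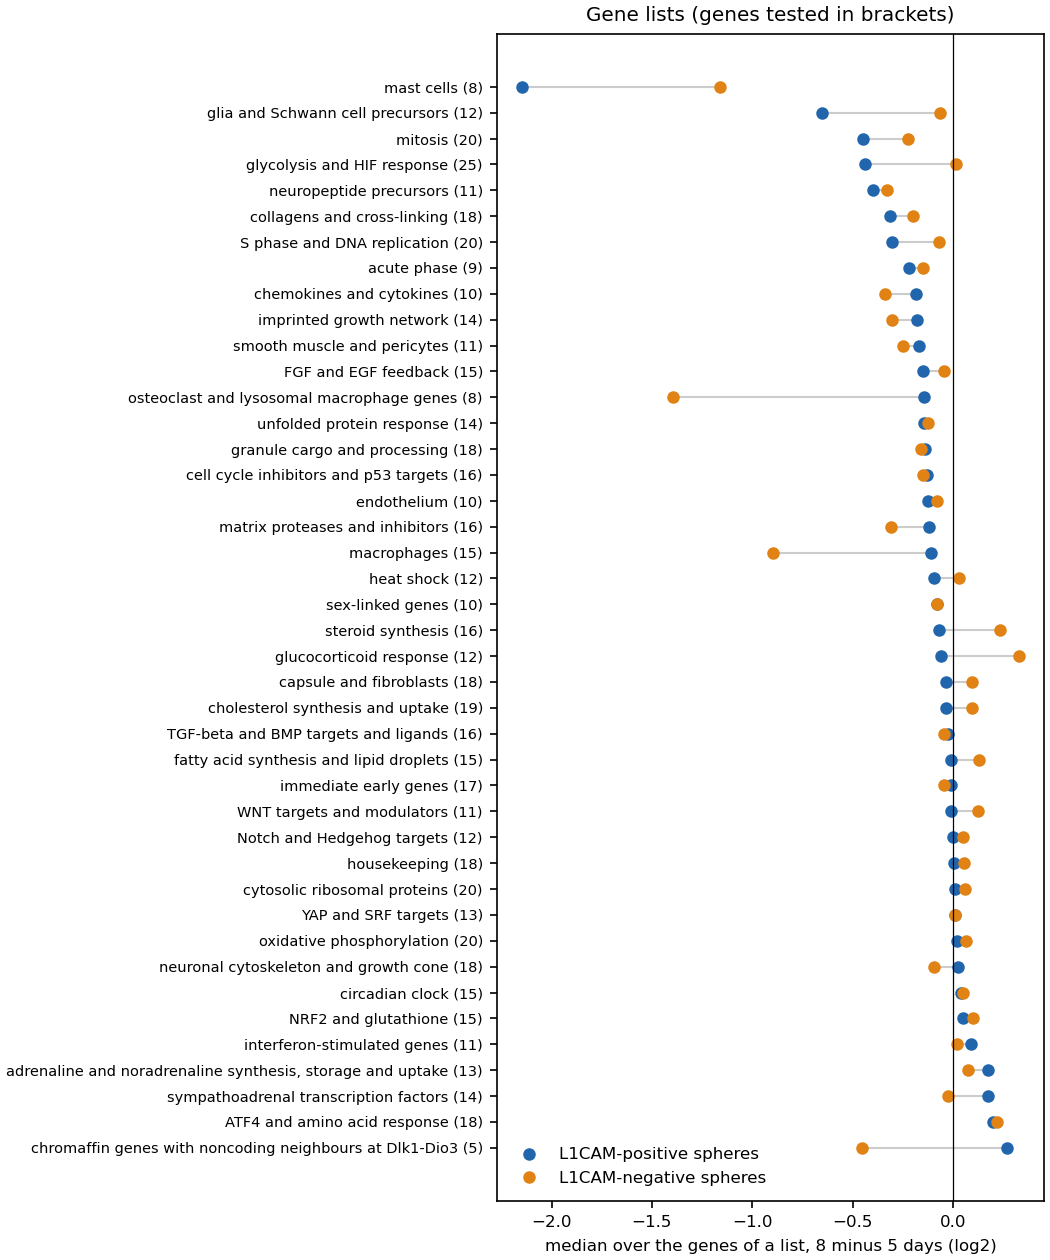
Median 8 minus 5 day difference in log2 units over the tested genes of each list with at least 5 of them, in L1CAM-positive spheres (blue) and L1CAM-negative spheres (orange), sorted by L1CAM-positive spheres. The lists of mast cell genes, osteoclast and lysosomal macrophage genes and neuropeptide precursors were written after the values were seen, so their rank is not a result. Mast cell genes lie farthest below 0 in L1CAM-positive spheres. Osteoclast and lysosomal macrophage genes do so in L1CAM-negative spheres, followed there by mast cell genes. Among the other lists the lowest medians are those of glial genes in L1CAM-positive spheres (-0.65) and macrophage genes in L1CAM-negative spheres (-0.90).

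The genes of other cell types moved beside these groups. Mast cell, glial and macrophage genes were lower after 8 days in L1CAM-positive spheres by the sums and medians given above. In L1CAM-negative spheres mast cell, macrophage and some endothelial genes were lower. Their part in the differences of glycolysis, peptide and cell cycle genes was not tested. *Xist* and the Y-linked genes differed in both fractions, but each culture period had its own library number. For these genes, as for all others, the part of the library number cannot be told apart from that of the culture period.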

How the data were processed

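Libraries were prepared from total RNA of adrenal spheres with a stranded mRNA kit, and 4 of 5 entered the comparison. For alignment to mm10 the authors used STAR 2.6.1a, for FPKM Cufflinks, and for quantile normalization between samples limma. The deposited log2 values of 32737 RefSeq transcripts have a floor of exactly 1, from which an offset of 2 was inferred, so that a value of 1 stands for 0 FPKM. The number of samples in that normalization and the depth are not given in the sources used here, so intervals for counting error are left out.

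The 202 transcripts without a symbol (0.617%) were left out, and each of 23903 symbols was represented by its most abundant transcript (mean over all 5 libraries). Genes with a mean over the 4 libraries of at least the value of 1 FPKM were tested (13733). The common shift was tested with limma 3.58.1 in R 4.3.3 (terms for fraction and culture period, eBayes with a mean-variance trend, 2-sided, Benjamini-Hochberg, threshold 0.05). The study names no test for its RNA sequencing. Whether libraries came from separate animals is not said, and the spread behind each p-value may therefore be technical. The script was tested on simulated data.

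Within a fraction, log2 differences were described at a size of 1. Gene classes were alike (at least 1 in both fractions, same sign), one fraction only (at least 1 in one and under 0.5 in the other) and opposite. Named genes were the 12 alike genes each way with the largest mean difference, the 8 each way for each fraction alone, the opposite genes, and, in each of 40 lists (616 genes), the 3 members each way with the largest mean difference and the 2 with the highest mean. All members of the chromaffin, sex-linked and erythroid lists and genes that the study names were eligible too. The 3 further lists (mast cells, osteoclast and lysosomal macrophage genes, neuropeptide precursors), the genes at the thresholds and the list members named beyond this rule were chosen after seeing values. Some genes that the rule names are not reported here. Members and lists were chosen with earlier results of these data known. Promoters and microRNAs were taken from RefSeq, GRCm38.p6. The alternatives were pseudocounts of 0.1 and 5, no filter and a filter at 5 FPKM, summed transcripts, a further quantile step over the 4 libraries, values centred by the median or by housekeeping genes, fits without a trend or with a robust variance, and number 28 added or in place of number 25, with short RNA genes left out and mRNA alone added after seeing the data. Tables and plots were made in Python with pandas and matplotlib.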

Additional observations from a re-analysis of the deposited data

Results flagged for a closer look

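Of the 13388 tested genes other than short RNAs, *Gm15772* and *Hist2h2aa1* differed by at least 1 log2 unit in opposite directions in the fractions. *Gm15772*, a noncoding RNA, was lower after 8 days in L1CAM-positive spheres (8 minus 5 days, -1.90) and 1.07 higher in L1CAM-negative spheres. *Hist2h2aa1*, a replication-dependent histone gene, was lower in L1CAM-positive spheres (8 minus 5 days, -1.05) and 1.86 higher in L1CAM-negative spheres. The difference between the fractions was not tested. *Hist2h2aa1* has a near-identical copy, *Hist2h2aa2*, so its reads could be split between them, and neither gene was above 5.54 FPKM in the 4 libraries.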

How the results depend on the processing

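The counts changed most with the pseudocount and the library used. In the order of genes at least 1 higher and at least 1 lower, a pseudocount of 0.1 gave 74 and 212 (L1CAM-positive) or 99 and 190 (L1CAM-negative), and a pseudocount of 5 gave 7 and 35, and 7 and 20. In both fractions alike, a pseudocount of 0.1 gave 10 and 40. For differences in one fraction only it gave 46 higher and 117 lower (L1CAM-positive) or 56 higher and 97 lower (L1CAM-negative), and 10 opposite genes. A pseudocount of 5 gave 3 and 24 in L1CAM-positive only, 1 and 8 in L1CAM-negative only, and 0 opposite. A filter at 5 FPKM gave 43 lower in L1CAM-positive spheres, 10 higher and 26 lower in L1CAM-negative spheres, 29 lower in L1CAM-positive only, 3 higher and 12 lower in L1CAM-negative only, and 0 opposite. With transcripts summed 5 were higher in L1CAM-positive spheres, 3 in L1CAM-positive only and 5 in L1CAM-negative only, and *Nmb* turned to -0.089 in L1CAM-positive spheres. The common-shift test with limma called 0 in either direction without a filter (1547 at an unadjusted p under 0.05, lowest limma adjusted p = 0.498) and with mRNA alone (1190, lowest limma adjusted p = 0.0778). It called 2 higher with number 28 added, and 2 higher and 2 lower with short RNA genes left out. The limma adjusted p-value of *Xist* ranged from 0.00733 to 0.994 over 14 settings and was under 0.05 in 2 of them. Those of *Eif2s3y*, *Ddx3y* and *Akr1d1* ranged from 0.0384, 0.0479 and 0.0469 to 0.994 over 15 settings each, and those of *Mirlet7b* and *Mirlet7i* from 0.0127 to 0.994 and from 0.00348 to 0.756 over 13.

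With number 28 in place of L1CAM-negative number 25, 269 genes were at least 1 higher and 322 lower in L1CAM-negative spheres, 0 were higher in both fractions, 5 higher and 30 lower in L1CAM-positive only, 223 higher and 277 lower in L1CAM-negative only, and 12 opposite. Of the 64 genes at least 1 higher or lower in L1CAM-negative spheres 13 then changed sign, among them 10 genes that were followed singly, to -0.69 for *Ddx3y*, -0.96 for *Eif2s3y*, -0.51 for *Uty*, -1.23 for *Pnmt*, -0.017 for *Itgbl1* and -0.011 for *Gm15772*, and to 1.19 for *Ccl7*, 1.47 for *Rgs5*, 1.91 for *Saa3* and 1.03 for *Sirpa*. Smaller differences changed sign too, to -0.57 for *Kdm5d* and -0.50 for *Cyp11a1*. Number 28 differs from number 25 in age, what the numbers mark is not stated, and the cause was not tested. A further quantile step, centring, no trend and the robust form kept every count within 1.5 times. No paired analysis was possible because each period has a single number. Leaving out 1 library leaves the difference of the other fraction, which has no test.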
